A study of Mus musculus with 6 samples.

Results

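UTX (encoded by Kdm6a) is a histone H3K27 demethylase that also acts as a subunit of the MLL3 and MLL4 H3K4 methyltransferase complexes at enhancers and promoters. UTX-bound sites were examined here at genes whose names mark them as predicted, uncharacterised or noncoding. A site belonged to this set when the gene symbol the authors gave it was a Gm number, a Rik clone name, a microRNA (Mir or Mirlet), a small nucleolar RNA (Snor), a snoRNA host gene (Snhg), a LOC number, an AI or AW number, or ended in hg. In all, 454 of the 6739 sites (6.74%) met this rule, over 336 genes, and the other 6285 sites served for comparison. The rule used only the symbol and no measured value, but it was set with earlier results of these data known. Every site open to it had already passed an FDR under 0.05 in the authors' deposited table. CUT&Tag, in which an antibody directs a transposase to cut and tag the DNA around its target, had been run for UTX on sorted progenitor CD8 T cells (Ly108+CXCR6-) from the pancreatic lymph nodes of NY8.3 mice. NY8.3 mice carry a transgenic T cell receptor against a pancreatic beta cell antigen on the autoimmune diabetes-prone NOD background, and the 3 WT and the 3 UTX-deficient samples both carried it. The UTX-deficient group (UTXTCD.NY8.3) had UTX deleted in T cells only. The driver of the deletion, the ages of the mice and whether each sample came from 1 mouse are details the sources used here do not give, so p-values measure the spread between samples only.

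By annotation the 454 sites were mostly assigned to true noncoding genes. Long noncoding RNA (lncRNA) genes were assigned 322 sites, microRNA genes 64, transcribed pseudogenes 9 and snoRNA genes 2. Another 56 sites were assigned to protein-coding genes that still carry a clone name, and 1, assigned to Gm51400, had no entry. These are the types of the assigned genes and not of the places of the sites. Of the 453 sites with an annotated gene, 192 (42.4%) overlapped it. Rik names made up 217 sites, Gm numbers 157, microRNA names 67, AI or AW numbers 8, Snhg names 2 and Snor names 2. The last site, at Pgghg, a protein-coding gene for a collagen glucosidase, matched only by its letters, and no symbol was a LOC number.

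MicroRNAs are cut from hairpins in longer transcripts and pair with messenger RNAs through their seed, bases 2 to 8. MicroRNA genes act in T cells as repressors of many messages at once: miR-155 and miR-142 are needed for normal T cell responses, miR-150 marks resting lymphocytes, and let-7 restrains effector differentiation. LncRNA genes are often transcribed from the far side of a protein-coding promoter, and their host transcripts can carry snoRNAs that guide RNA modification. The mature microRNAs below belong to the hairpins nearest to the sites described first, and are shown because their seeds say which of these loci could share targets. They are RefSeq sequences (GRCm38.p6, the assembly of mm10), 5′ to 3′, with the seed in capitals. Mir150 and Mir30d are named without a sequence.

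miR-23a-3p: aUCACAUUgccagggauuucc
miR-27a-3p: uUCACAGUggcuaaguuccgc
miR-24-3p: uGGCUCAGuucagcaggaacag
miR-142a-5p: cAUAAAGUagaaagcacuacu
miR-142a-3p: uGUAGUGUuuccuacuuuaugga
miR-22-3p: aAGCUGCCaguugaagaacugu
miR-132-3p: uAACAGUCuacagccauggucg
miR-212-3p: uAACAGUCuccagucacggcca
miR-21a-5p: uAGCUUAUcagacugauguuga
let-7a-5p: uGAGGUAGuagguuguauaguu
let-7f-5p: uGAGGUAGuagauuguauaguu
let-7d-5p: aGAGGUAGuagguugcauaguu
miR-155-5p: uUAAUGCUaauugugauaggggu

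In this set miR-132-3p and miR-212-3p shared 1 seed (AACAGUC), and let-7a-5p, let-7f-5p and let-7d-5p shared another (GAGGUAG). Each of the other 8 microRNAs had a seed of its own. miR-23a, miR-27a and miR-24 come from 1 cluster on chromosome 8 and let-7a-1, let-7f-1 and let-7d from 1 cluster on chromosome 13, so a site near the first hairpin lies near all 3.

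The deposited table gives 1 level per genotype and no value per sample. The whole reads of each library were recovered from those levels at 6728 of the 6739 sites and at 453 of the 454. Libraries are given below in order of depth, deepest first, and could not be tied to a replicate number. Relative depths were 1.28, 0.916 and 0.792 for WT, then 1.93, 1.07 and 0.00577 for UTX-deficient cells. The last of these, here called the near-empty library, carried 0 reads at 451 of the 453 members, and results that rest on it are given with and without it. Among marker genes, 9 of 10 progenitor CD8 T cell genes had a site (21 sites), and none of 5 B cell, 4 myeloid and 4 pancreas genes did.

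Sites at predicted and noncoding genes lost UTX signal almost without exception when UTX was deleted. At an FDR under 0.05 in the authors' deposited table, WT was higher at 452 of the 454, against 99.7% of all its sites, and UTX-deficient cells were higher at 2, against 0.312%. The members' share was near the background and is no result about them. At an FDR under 0.01 the background was 86.6% and 0.223%. In limma, which called 451 and 2 of the 453 members with recovered reads, it was 99.8% and 0.208%. Across the other limma settings it was again 99.8% higher in WT, and the share higher in UTX-deficient cells was 0.208% with a filter on low means, 0.0297% with a pseudocount of 8, and 0.208% with a mean-variance trend or 0.0446% with that trend and no near-empty library. With 1 library left out the share was 0.193%, 0.178% and 0.208% for the WT libraries and 0.193%, 0.104% and 0.0297% for the UTX-deficient libraries. All sites of the deposited table pass that FDR, and 1554 of the 8293 tests behind it lie outside the table. Reads at the 451 recovered members higher in WT came to 23414, 18922 and 13806 in the WT libraries and to 1194, 1993 and 0 in the UTX-deficient libraries. At 451 of 453 members every WT library exceeded every UTX-deficient library in normalized reads, against 99.8% of all recovered sites. The mean per site was 41.7 ± 3.70 normalized reads in WT (SD, n = 3) and 1.83 ± 2.10 in UTX-deficient cells (SD, n = 3), or 2.74 ± 1.95 (SD, n = 2) without the near-empty library. The ratio without it was 15.2, and 16.9 at the other sites.

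In level, the members resembled the rest of the table in WT cells and had a slightly higher median level in UTX-deficient cells. Their median log2 level was 4.97 in WT against 4.94 at the other sites. In UTX-deficient cells it was 0.54 against 0.35, a difference of 0.18 that was 0 with either of the deeper 2 UTX-deficient libraries left out, and 32.2% of members lay at the floor of the scale against 38.0%. The fold of the authors' deposited table is a log2 value, negative where WT is higher, and its median was −3.44 at members and −3.51 at others. Per library the mean of the members over that of the others was 1.00, 1.02 and 1.03 in WT and 1.17 and 1.12 in the deeper 2 UTX-deficient libraries. Medians in those 2 libraries were the same for members and others (1.03 and 2.80 normalized reads). Members had 0 reads less often, at 12.1% against 15.2% of sites in the deepest library and 4.64% against 6.52% in the next, and the upper end was higher too, with a 95th percentile of the UTX-deficient level of 2.23 against 2.04 (log2). Sites are not replicates, and no test was made of these differences.

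**Figure D1:**
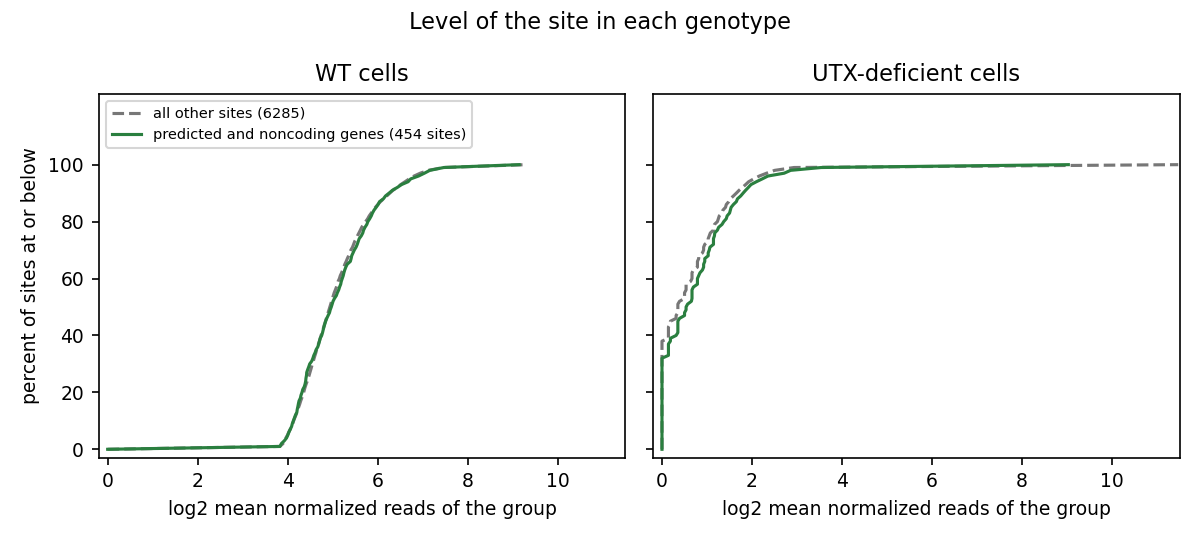
Percent of sites at or below each level (y axis) against the log2 mean normalized reads of the group (x axis), for WT cells on the left and UTX-deficient cells on the right; the solid line is the 454 sites at predicted and noncoding genes and the dashed line the other 6285. The lines run together in WT (medians 4.97 and 4.94), and in UTX-deficient cells the members lie to the right (0.54 and 0.35), a difference of medians that was 0 with either of the deeper 2 libraries left out.

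The strongest UTX site of any microRNA gene lay at Mir23a, which heads the miR-23a, miR-27a and miR-24-2 cluster. This site (chr8:84198397-84198797) stood 9921 bp upstream of the Mir23a hairpin with a log2 level of 9.14 in WT, the highest of all members, which is a mean of 563.7 normalized reads. Its WT reads could not be split between libraries, and UTX-deficient libraries held 27, 59 and 0 reads. The authors' deposited table gives it a fold of −3.79 (FDR 1.03e-05). A second Mir23a site (chr8:84203420-84203820), 4898 bp upstream, had 104, 100 and 70 reads in WT against 6, 8 and 0 in UTX-deficient cells. Signal at Mir23a thus lay in a pair of sites upstream of the cluster. At the second one no UTX-deficient library reached a WT library, which held at 99.8% of all recovered sites.

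Mir142, which encodes the blood cell microRNA miR-142, carried 2 sites upstream of its hairpin. At the farther one (chr11:87749334-87749734, 7330 bp upstream) reads were 192, 177 and 101 in WT against 8, 12 and 0 in UTX-deficient cells, and at the nearer one (chr11:87755262-87755662, 1402 bp) 98, 80 and 64 against 5, 6 and 0. Limma was fitted to log2(normalized reads + 1), with Benjamini-Hochberg adjustment over the 6728 recovered sites. All of these had already passed the authors' FDR for the same comparison, so its adjusted p is no independent support. In limma the farther site differed by −5.29 (UTX-deficient minus WT, adjusted p = 3.98e-11), and by −4.30 without the near-empty library (adjusted p = 1.30e-05). Every WT library was above every UTX-deficient library at both, as at 99.8% of all recovered sites.

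Other microRNA loci of T cells followed the same order. Mir22hg, the host transcript of miR-22, had a site over its own start (chr11:75461240-75461640) with 184, 124 and 100 reads in WT against 3, 13 and 0 in UTX-deficient cells. Mir132 (chr11:75173525-75173925), a site that covers the hairpin itself and lies 337 bp past the start of the Mir212 hairpin of the same seed, had 113, 122 and 73 against 2, 8 and 0. Both loci kept at most 13 reads in any UTX-deficient library. Mir150 (chr7:45121322-45121722) had 116, 99 and 64 reads against 4, 8 and 0. Mir21a (chr11:86579024-86579424), whose microRNA is raised in activated lymphocytes, had 79, 51 and 44 against 3, 4 and 0 at a site 4934 bp past the start of its hairpin. Mirlet7a-1 (chr13:48546418-48546818) had 78, 61 and 37 against 2, 6 and 0 at a site 8346 bp upstream. Mir30d (chr15:68363185-68363585), the lowest of these in WT, had 46, 34 and 24 against 2, 2 and 0. No UTX-deficient library overlapped a WT library at any of the 8 sites of this and the preceding paragraph. The same held at 99.8% of all recovered sites, so it is no result about these loci.

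Mir155hg, the host gene of miR-155, held 1 site of each direction, neither near its start. The site higher in WT (chr16:84583789-84584189) lay 129034 bp before the listed start, with 63, 40 and 48 reads in WT against 1, 7 and 0 in UTX-deficient cells. At the other (chr16:84656342-84656742) all 3 WT libraries and the deeper 2 UTX-deficient libraries had 0 reads and the near-empty library had 8. The authors' deposited table gives that site a fold of 4.73 (FDR 0.00619). Mir344b, the only other member higher in UTX-deficient cells (chr7:61773748-61774148), had 1, 2 and 2 reads in WT against 2, 4 and 9 in UTX-deficient cells, the 9 in the near-empty library, where 1 read is worth 173.2 normalized reads. Its fold in the authors' deposited table was 5.60 (FDR 4.82e-04). Without the near-empty library limma gave Mir344b a difference of 0.19 (adjusted p = 0.716) and the second Mir155hg site a difference of 0 (adjusted p = 1), so both calls rest on that 1 library.

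A list of microRNA loci known in T cells held 101 gene symbols, with several symbols for some loci, while a site carries only 1 symbol. Of the 101 symbols 9 had a site, which is not a share of loci, and they held 12 sites in all. Of these 11 were higher in WT, against 99.7% of all sites, and 1, the second Mir155hg site, in UTX-deficient cells, against 0.312%, with a median fold of −4.10 in the authors' deposited table against −3.50 over all sites and a median WT level of 6.44 against 4.94 (log2). Over all microRNA sites whose hairpin has a sequence entry (56 sites, 50 genes), 29 lay upstream and 27 downstream of the hairpin's start, 15 within 1 kb and 40 within 10 kb. A protein-coding gene contained 31 of the 56, and 9 were within 1 kb of the listed start of one. Mir7058 is an example: its site (chr7:126369406-126369806) lay 38 bp from the start of Lat, the adaptor of T cell receptor signalling, with 75, 48 and 34 reads in WT against 1, 2 and 0 in UTX-deficient cells. Mir6992 (chr19:8741300-8741700), with 69, 58 and 47 against 4, 0 and 0, lay 76 bp from the start of Stx5a, a Golgi syntaxin. At these sites the microRNA name is that of a neighbour of a protein-coding start.

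**Figure D2:**
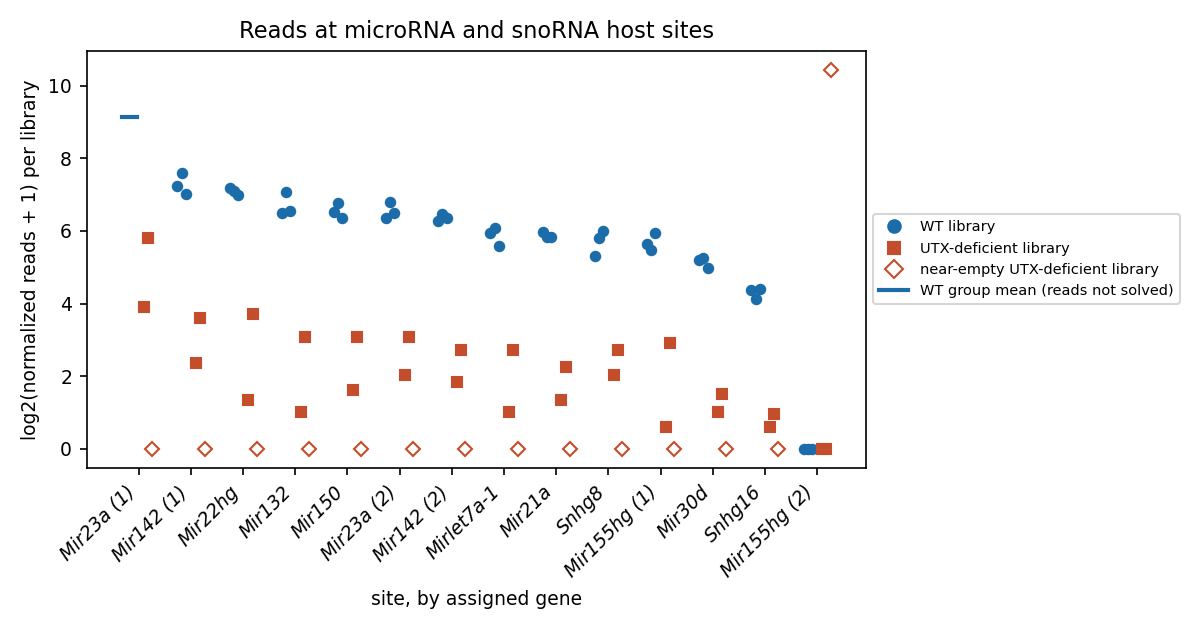
Log2(normalized reads + 1) in each recovered library (y axis) at every site of the T cell microRNA and Snhg lists (x axis, by assigned gene, highest WT level first; a number in brackets tells sites of 1 gene apart). Filled circles are WT libraries, squares UTX-deficient libraries, open diamonds the near-empty library and the dash a WT mean whose reads could not be split; only the second Mir155hg site is higher in UTX-deficient cells, in the near-empty library alone.

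Genes that host snoRNAs in their introns were represented by Snhg8 and Snhg16, 2 of the 17 Snhg genes looked for. Snhg8 (chr3:123508259-123508659) had 49, 50 and 50 reads in WT against 6, 6 and 0 in UTX-deficient cells. Snhg16 (chr11:116671187-116671587) had 25, 15 and 16 against 1, 1 and 0. Both sites lay at the gene's own start, 123 and 273 bp away. The snoRNA site Snord104 was near the low end of the members in WT, with 18, 24 and 10 reads against 2, 1 and 0. Snora34 had 30, 29 and 22 against 1, 9 and 0.

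Promoter sequence was read for members whose site covered part of a listed promoter window, 250 bases before to 50 after the start. The 5 windows below (RefSeq, GRCm38.p6, 5′ to 3′ on the gene's strand) are at 5031425E22Rik (chr5:23433287-23433586, minus strand), Mir22hg (chr11:75461289-75461588, plus), Gm15559 (chr5:110770699-110770998, plus), Snhg8 (chr3:123508287-123508586, minus) and Gm4668 (chr9:116188930-116189229, plus). They were chosen after the values were seen, to show windows that range from rich in CG pairs (Snhg8) to poor in them (Gm4668). Capitals mark matches on either strand to 7 motifs. The ETS core was searched as CCGGAAG and the GC box, which the factor SP1 can bind, as GGGCGG. The pentamer of NF-Y sites was searched as CCAAT and the cyclic AMP element (CRE) as TGACGTCA. For RUNX factors the letters were TGTGGTT and for the factor YY1 they were AAGATGGCG, and NRF1 was searched by its palindromic motif.

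5031425E22Rik: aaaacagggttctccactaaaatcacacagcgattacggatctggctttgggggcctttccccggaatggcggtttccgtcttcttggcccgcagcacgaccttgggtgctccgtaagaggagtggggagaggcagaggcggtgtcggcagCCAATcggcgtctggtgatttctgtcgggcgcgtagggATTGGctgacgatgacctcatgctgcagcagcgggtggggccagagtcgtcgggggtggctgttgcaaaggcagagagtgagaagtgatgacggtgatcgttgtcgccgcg
Mir22hg: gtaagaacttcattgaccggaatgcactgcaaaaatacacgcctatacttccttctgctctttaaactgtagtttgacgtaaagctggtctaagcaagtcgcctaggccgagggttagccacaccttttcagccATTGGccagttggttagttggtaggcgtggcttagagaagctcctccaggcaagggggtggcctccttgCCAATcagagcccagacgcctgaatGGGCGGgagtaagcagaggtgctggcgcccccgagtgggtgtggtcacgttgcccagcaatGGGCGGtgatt
Gm15559: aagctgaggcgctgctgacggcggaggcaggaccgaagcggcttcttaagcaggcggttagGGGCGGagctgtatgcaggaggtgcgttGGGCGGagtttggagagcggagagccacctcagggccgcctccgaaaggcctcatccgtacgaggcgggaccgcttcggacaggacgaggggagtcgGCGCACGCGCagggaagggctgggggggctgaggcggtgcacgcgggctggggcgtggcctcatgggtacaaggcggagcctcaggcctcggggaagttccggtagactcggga
Snhg8: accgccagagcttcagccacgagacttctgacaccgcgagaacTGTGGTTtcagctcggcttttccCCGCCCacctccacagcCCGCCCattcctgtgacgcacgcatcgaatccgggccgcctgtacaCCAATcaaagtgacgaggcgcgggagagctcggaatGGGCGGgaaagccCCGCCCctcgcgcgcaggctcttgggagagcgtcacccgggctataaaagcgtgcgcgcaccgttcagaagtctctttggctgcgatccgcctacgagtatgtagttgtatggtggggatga
Gm4668: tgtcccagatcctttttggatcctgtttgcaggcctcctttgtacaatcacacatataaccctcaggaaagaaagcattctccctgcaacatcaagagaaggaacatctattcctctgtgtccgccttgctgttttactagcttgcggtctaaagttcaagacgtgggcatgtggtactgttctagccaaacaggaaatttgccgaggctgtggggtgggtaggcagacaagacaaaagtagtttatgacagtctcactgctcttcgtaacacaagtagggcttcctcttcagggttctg

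Snhg8 held 4 GC boxes, a CCAAT box and a RUNX match, and Gm15559 held 2 GC boxes and an NRF1 match. Mir22hg held 2 GC boxes and 2 CCAAT boxes, 5031425E22Rik held 2 CCAAT boxes, and Gm4668 held none of the 7. The ratio of CG pairs observed to those given by base content was 1.04 in Snhg8, 0.932 in 5031425E22Rik, 0.920 in Gm15559, 0.541 in Mir22hg and 0.302 in Gm4668. A match is a description of letters and not of binding.

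Members with a site in the window had promoters closer in CG content to those of other bound genes than to those of lncRNA genes without a site. The median ratio of CG pairs was 0.805 in 106 windows of 99 members, 0.825 in 3128 windows of other genes with a site and 0.236 in 11121 lncRNA windows without one. Only 78 of the 106 member windows were those of lncRNA genes, with a median ratio of 0.807. In all 8 motifs were searched, the eighth being GGAA, which overlaps the ETS core. The ETS core was in 21.7% of member windows (exact 95% interval 14.3 to 30.8%), 19.7% of other bound windows, 3.47% of lncRNA windows without a site and 8.86% of all 32851 windows. GC boxes were in 69.8%, 80.1%, 14.1% and 35.7%, and NRF1 matches in 11.3%, 13.5%, 0.971% and 4.60%. The CCAAT box was in 36.8% of member windows (27.6 to 46.7%), 46.9% of other bound windows, 35.8% of lncRNA windows without a site and 37.4% of all windows. GGAA was in 98.1%, 94.3%, 96.4% and 96.0%. CRE, YY1 and RUNX matches were each in 5 of the 106 member windows (4.72%, interval 1.55 to 10.7%). In other bound windows the shares were 4.16%, 3.68% and 3.04%, and in lncRNA windows without a site 0.881%, 0.522% and 6.34%. In all windows they were 1.79%, 1.40% and 5.27%. The share of bases that are G or C was 61.3% in member windows (median) and 48.0% in lncRNA windows without a site, and its part in the motif shares was not tested. Some of these members also had the start of another protein-coding gene within 1 kb. The part of such starts in the CG ratio and the motif shares was not tested either.

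**Figure D3:**
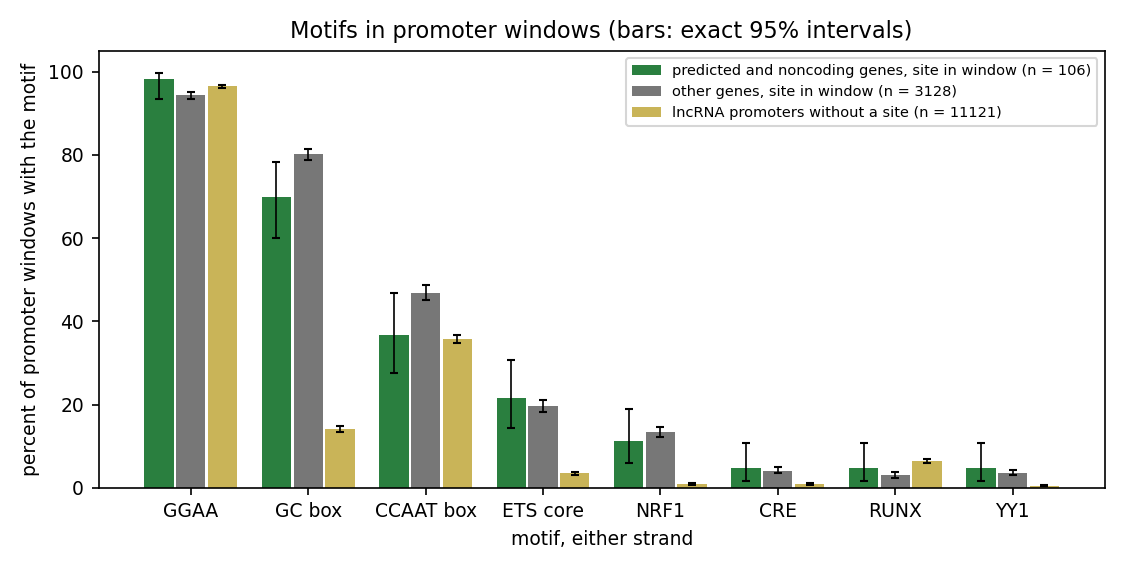
Percent of promoter windows (y axis) that hold each of the 8 motifs on either strand (x axis), for members with a site in the window, other genes with a site in the window and lncRNA promoters without a site; bars with exact 95% intervals. The ETS core stands at 21.7%, 19.7% and 3.47%, and GGAA stands at 98.1%, 94.3% and 96.4%.

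Members lay farther from the genes they were named for than other sites did. Within 1 kb of an end of the assigned gene lay 35.5% of members (161 of 453; exact 95% interval 31.1 to 40.1%) against 54.3% of other sites (53.0 to 55.5%), and 42.4% against 78.7% overlapped the assigned gene. The median distance to a gene end was 5606 bp against 566 bp. Another gene, a protein-coding one, was overlapped by 31.9% of members (27.7 to 36.4%) and by 12.0% of others (11.2 to 12.8%), and 19.4% (15.8 to 23.3%) against 13.8% (12.9 to 14.6%) lay within 1 kb of its end. Such a gene was overlapped by 35 of 67 microRNA sites, 56 of 157 Gm sites, 52 of 217 Rik sites and 2 of 8 AI or AW sites. The assigned gene was left out when another protein-coding gene was looked for. A site over its own protein-coding gene therefore did not count for that gene, and only 56 of the 454 members were assigned to a protein-coding gene. The shares over and near another gene are thus not like for like between members and other sites. The lengths of the genes were not compared, and their part in these shares was not tested.

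**Figure D4:**
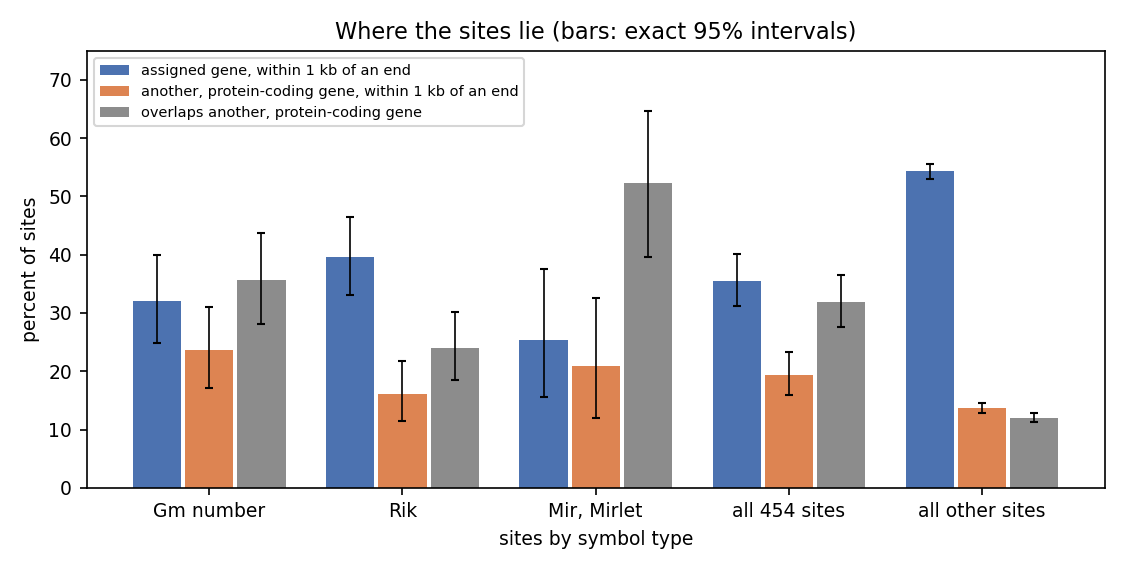
Percent of sites (y axis) by symbol type (x axis) that lie within 1 kb of an end of the assigned gene, within 1 kb of an end of another, protein-coding gene, or over another protein-coding gene; bars with exact 95% intervals. The first share is 35.5% for all 454 sites against 54.3% for the other sites, and the third is 31.9% against 12.0%.

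Several strong members lay beside the start or end of a protein-coding gene. Of 314 members with a listed start of the assigned gene, 115 (36.6%) lay within 1 kb of it, against 3148 of 5056 other sites (62.3%). In 47 of these 115 members the start of another protein-coding gene was within 1 kb too, as in 441 of those 3148 other sites. These are 15.0% of the 314 members and 8.72% of the 5056 other sites. In 43 of the 47 (91.5%) the starts were on opposite strands, against 98.6% of such other sites, and in 34 (72.3%) they pointed away from each other, against 87.8%. Gm51400 (chr19:6979801-6980201), which has no listed start of its own and lay 85 bp from that of Fkbp2, a prolyl isomerase gene, had 385, 308 and 210 reads in WT against 3, 19 and 0 in UTX-deficient cells. 1110020A21Rik (chr17:84957525-84957925), beside the start of the phosphatase gene Ppm1b, had 260, 187 and 174 against 6, 20 and 0. The second site of 5031425E22Rik (chr5:23433170-23433570), at the window printed above and over an end of Kmt2e, a chromatin reader gene, had 167, 143 and 98 against 7, 10 and 0. Its strongest site (chr5:23386882-23387282), inside 5031425E22Rik, had 283, 240 and 168 against 10, 14 and 0. At each of these sites the lowest WT library stood above the highest UTX-deficient library, as at 99.8% of all recovered sites.

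Gm15559 (chr5:110770645-110771045), beside the start of Ep400, which encodes a chromatin remodelling ATPase, had 150, 100 and 84 reads in WT against 1, 3 and 0 in UTX-deficient cells. Its fold in the authors' deposited table, −5.73 (FDR 2.70e-20), was among the most negative of the members. AI837181 (chr19:5424801-5425201), 22 bp from the start of the transcriptional corepressor gene Drap1, had 44, 44 and 38 against 1, 1 and 0. Gm38499 (chr7:19228159-19228559), assigned from 21076 bp away, lay 30 bp from the start of the mitochondrial gene Opa3 and had 175, 141 and 96 against 3, 10 and 0. 4932412D23Rik (chr16:42875331-42875731), within Zbtb20, a gene for a zinc finger repressor of memory CD8 T cells, had 220, 186 and 147 against 13, 24 and 0.

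The extremes of the fold show sites with no signal left and sites with much. 0610010K14Rik (chr11:70237654-70238054), a protein-coding gene, had 56, 52 and 36 reads in WT and 0 in all 3 UTX-deficient libraries. A430093F15Rik (chr19:10747610-10748010), 8784 bp from the T cell surface gene Cd5, had 47, 45 and 32 and again 0 in all 3. In all, 6 of the 453 recovered members had no read in any UTX-deficient library, against 99 of all 6728 recovered sites, a similar share. By contrast 1600014C10Rik, also a protein-coding gene, kept reads at both of its sites. At its start (chr7:38183522-38183922) it had 52, 34 and 31 reads in WT against 35, 23 and 0 in UTX-deficient cells, and at the second site (chr7:38189429-38189829) 109, 67 and 62 against 38, 31 and 0. The authors' deposited table gives these folds of −0.97 (FDR 0.0158) and −1.70 (FDR 2.03e-05). Without the near-empty library limma gave differences of −0.95 (adjusted p = 0.0417) and −1.68 (adjusted p = 0.00217).

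Most genes had a single site (264 of 336), and 5 genes had 5 or 6. Those 5 genes are lncRNA genes whose sites are spread over 56.0 to 181.9 kb, and most of the sites lie outside the gene they are named for. 4933406K04Rik had 6 sites, none inside the gene. The protein-coding gene nearest to them is the predicted Gm52008, and Bcl11b, a transcription factor gene of T cell identity, is 726.0 to 859.0 kb away. Gm27162 had 6, from 148.8 to 303.1 kb from Ets1, which encodes an ETS family factor, and 4 were in Gm27162. The sites at chr9:32926207-32926607 and chr9:32928604-32929004 were the strongest of the 5 genes, with 151, 122 and 106 reads in WT against 17, 24 and 0 and with 138, 113 and 75 against 11, 22 and 0. 1600002D24Rik had 5 sites at 77.7 to 179.2 kb from Ets2 (2 of the 5 lay nearer to Psmg1), Gm4668 had 5 at 12.4 to 193.8 kb from Tgfbr2, the TGF-beta receptor gene, and Gm9530 had 5 at 12.9 to 68.5 kb from Ier5. The neighbours were picked after the positions were seen, and no link between site and neighbour was measured. All 27 sites of these genes were higher in WT, against 99.7% of all sites, and the authors' deposited table gives folds between −4.20 and −2.19.

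**Figure D5:**
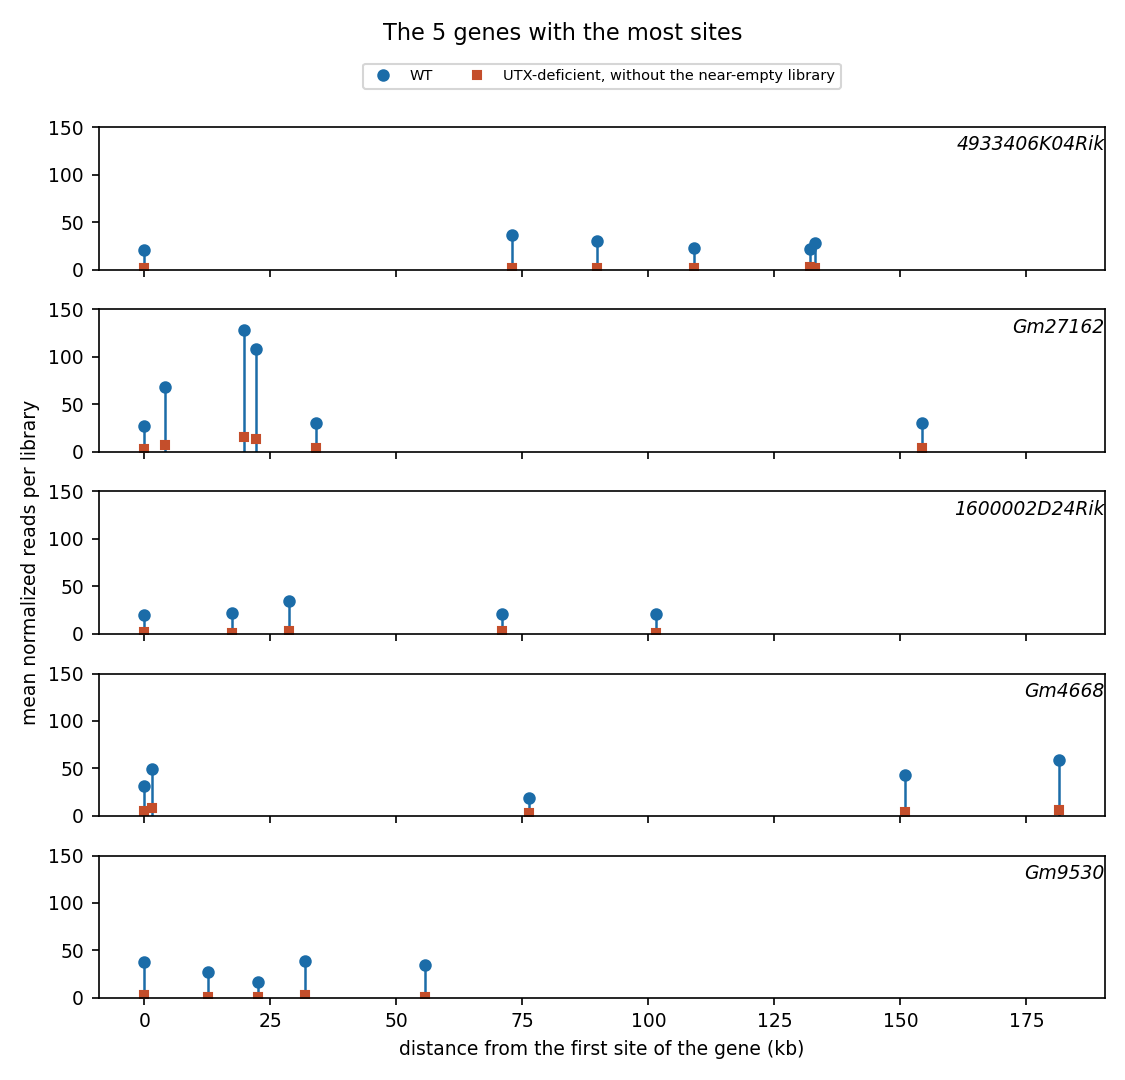
Mean normalized reads per library (y axis) at each site of the 5 genes with the most sites, against the distance from the gene's first site in kb (x axis); circles are WT and squares UTX-deficient cells, leaving out the near-empty library. The tallest circles are at Gm27162, and squares lie under the circles at all 27 sites.

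Noncoding genes with names of their own were looked for as well, from a list that the rule does not match apart from Mir22hg. Of 59 names 17 had a site, 1 of them, Trerf1, a protein-coding gene by annotation. All 29 sites were higher in WT, against 99.7% of all sites, with a median fold of −3.66 in the authors' deposited table against −3.50 over all sites. Among them were Neat1, the scaffold of paraspeckles, with a fold of −4.18, Gas5, a snoRNA host gene, with −4.13, and Rmrp, the RNA of an RNA-processing ribonuclease, with −4.91, each in the authors' deposited table.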

How the data were processed

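UTX CUT&Tag was run on 3 WT and 3 UTX-deficient samples, and 1 deposited table of the comparison was read. DiffBind, MACS2, Bowtie2, cutadapt, Picard, SAMtools and FastQC with build mm10 stand in the submitters' processing notes, without roles or versions. As deposited, per the file headers, the levels are log2 means of normalized reads per group, and the fold is log2. The p-value and FDR are the authors' own. A site is 401 bp wide, and whether peaks were called on pooled samples is not stated.

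Members and gene lists were chosen with earlier results of these data known. Named sites are those higher in UTX-deficient cells, those of the microRNA and Snhg lists, the extremes of level and fold in each symbol class, the 5 genes with the most sites, the 5 highest levels in UTX-deficient cells and the 5 strongest sites within 1 kb of another protein-coding gene; sites named beyond these were picked after their values were seen. The motifs, printed windows and neighbour genes were also chosen after values were seen.

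A group's antilog level times 3 sums whole reads over 3 libraries, each weighted by a constant worth per read. The worths were fitted to the table (tolerances were adjusted until the near-empty library's worth was found), and each sum was solved where exactly 1 solution existed. The recovery was tested on simulated reads, in which the sites of the near-empty library had to keep their real reads because a first simulation without them failed. Limma 3.58.1 (R 4.3.3) was fitted to log2(normalized reads + 1) over all 6728 solved sites with Benjamini-Hochberg adjustment, as an alternative to the authors' test. It was first run with a mean-variance trend, and the fit without a trend was kept after both had been seen, in an attempt to match earlier counts that neither matched. In its simulated test the near-empty library was replaced by one of mean depth. Genes were placed with RefSeq annotation of GRCm38.p6, which matched the symbols of 453 of the 454 sites and gave 314 of these sites a promoter entry. Intervals are exact (Clopper-Pearson) and cover counting error only.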

Additional observations from a re-analysis of the deposited data

How the results depend on the processing

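The count of members higher in WT (452 of 454) was 379 (83.5%, against 86.6% of all sites) at an FDR of 0.01, 396 of 398 without protein-coding members, and 240 of 241 (99.6%) among members whose nearest gene end is that of the assigned gene. It was 451 of 453 in limma with all libraries, with a pseudocount of 8, with a filter at a mean of 5 and with each library left out. The count higher in UTX-deficient cells (2) was 1 among those sites, 0 in limma with a pseudocount of 8, 0 to 2 with a library left out, and 0 in limma with a mean-variance trend and no near-empty library. The trend, chosen after seeing the data, gave 2 with all libraries, and 451 higher in WT, or 450 without the near-empty library.

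The difference in median WT level (members minus others, log2) was 0.03, against 0.0536 without protein-coding members, 0.0842 within 1 kb of the assigned gene, 0.0165 as a mean and −0.0141 to 0.0199 with a library left out, so its sign is not stable. In UTX-deficient cells the difference was 0.18, against 0.13 as a mean and 0 to 0.18 with a library left out. The difference in fold was 0.07, and −0.00506 within 1 kb of the assigned gene. Changes were judged against the SD over libraries of the difference in mean log2 value, which replaced the SD of the difference in medians after that had come out as 0 for UTX-deficient cells. Within 5 kb in place of 1 kb, the share near the assigned gene was 49.0% of members against 67.1% of other sites. Near another protein-coding gene it was 28.6% of members (exact interval 24.5 to 33.0%) against 25.8% of other sites (24.7 to 26.9%). These intervals overlapped, whereas within 1 kb the shares were 19.4% (15.8 to 23.3%) and 13.8% (12.9 to 14.6%). The cause was not tested.

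Of the 66 named sites with recovered reads, 66 kept their direction and call in limma with all libraries. Over all 6728 recovered sites limma called 99.8% higher in WT and 0.208% higher in UTX-deficient cells, so this count is near the background. Without the near-empty library 2 of the 66 lost the call (Mir344b and the second Mir155hg site). Mir344b also lost it without the second deepest UTX-deficient library. No paired analysis was possible because the recovered libraries carry no replicate number. A UTX-deficient library has 0 to a few reads at most sites, which limits how small a remaining signal can be told from none.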
